A study of Mus musculus with 10 samples.

Results

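Interferon-inducible genes were examined in CD146-selected liver cells, a preparation of the fenestrated endothelium that lines the hepatic sinusoids (LSEC), after feeding with a CDAA or a control diet. The 36 genes were taken by symbol from a list, and 33 of them had a named probe set among 24704 genes. They form 2 sets, GTPases known to be induced by interferon gamma (13 listed, 11 measured) and genes known chiefly as targets of type I interferon (23 listed, 22 measured). Gbp6, Tgtp1 and Ifi44 had no named probe set here. No filter on low signal was applied, so all 33 measured genes were tested.

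The data were 10 Affymetrix arrays, 5 with CDAA and 5 with the control diet, which the labels call Std. CDAA feed drew 31% of its calories from fat and held 1% cholesterol, and in liver research the abbreviation commonly means choline-deficient and L-amino acid-defined feed, used to bring on steatohepatitis with fibrosis. In both groups the animals were female C57BL/6N mice, aged 10 weeks when feeding began and fed for 10 weeks, although the field for treatment duration reads 10 days. Each array carried RNA from 3 pooled mice, so its value is that of a pool. The labels give no allele for any sample, and the Gata4 knockout mice of the series' design text are not analysed here.

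Interferons are secreted proteins that cells release on contact with microbes or foreign nucleic acid. Interferon gamma comes mainly from T and NK cells and acts through the receptor chains Ifngr1 and Ifngr2, whereas type I interferons act through Ifnar1 and Ifnar2, and both use JAK kinases and STAT factors to switch on genes through short DNA elements in promoters. Among the products, guanylate-binding proteins (GBPs) and immunity-related GTPases (IRGs) coat and break the vacuoles in which microbes live, and antiviral proteins bind or degrade viral RNA or hold virus at the membrane. In the liver, macrophages, hepatocytes and endothelium all respond to interferon.

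The probe sets carried log2 signals from robust multi-array average (RMA), and the median of every array was 3.89. Background was read from 25 genes not expected in female liver, whose mean signals ran between 2.02 and 5.65, with a median of 2.80 and a 90th percentile of 4.04. Stab2, a scavenger receptor that defines LSEC, was bright on all arrays but fell with CDAA, at 10.75 to 11.65 on CDAA arrays and 12.09 to 12.32 on Std arrays. In all, 12 of 15 LSEC markers and 9 of 12 pan-endothelial markers fell, while 9 of 11 markers of recruited macrophages, 7 of 7 of bile duct cells and 6 of 12 of stellate cells and fibroblasts rose. Of all genes, 9.13% fell and 7.49% rose. Of 12 Kupffer cell markers, 4 fell (Timd4 at -3.73, Marco at -1.88, Clec4f at -1.14 and Vsig4 at -1.14) and 1 rose (Cd68 at 1.38). Their list mean was 8.78 to 9.72 with CDAA and 8.86 to 9.83 with Std, and it averages these opposite changes. The values are thus those of a mixed isolate. In such bulk samples, fewer cells of a type and less RNA per cell cannot be told apart. CDAA 1 and CDAA 3 stood apart, with pan-endothelial means of 10.21 and 9.83, the lowest of all arrays.

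The promoters are shown because their interferon-response elements are what an interferon signal acts on. RefSeq sequence of build GRCm38.p6 was found for 28 of the 36 genes, and none was found for Gbp4, Gbp6, Gbp9, Iigp1, Mx1, Mx2, Oas2 and Usp18. The 250 bases before each start were searched on both strands for the core of the interferon-stimulated response element (ISRE), which is GAAA, any 2 bases and GAAA again (TTTC, 2 bases and TTTC on the other strand), and for the gamma-activated sequence (GAS), which is TTC, any 3 bases and GAA on either strand. The first 4 sequences belong to GBP genes that lie side by side on chromosome 3, of which Gbp2b and Gbp7 fell and Gbp3 and Gbp2 did not pass the test, and the last to Ifit1, a type I gene that fell. Bases in capitals are matches to either motif, and each sequence runs 5′ to 3′ along the gene and ends at the base before the start (for Gbp3, the first of its 2 starts).
Gbp2b (chr3:142594597-142594846, plus strand): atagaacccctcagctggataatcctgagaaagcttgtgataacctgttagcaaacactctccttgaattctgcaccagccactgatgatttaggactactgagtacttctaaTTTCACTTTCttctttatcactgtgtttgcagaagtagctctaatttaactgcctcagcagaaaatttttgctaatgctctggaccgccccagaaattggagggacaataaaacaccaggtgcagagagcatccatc
Gbp7 (chr3:142530086-142530335, plus strand): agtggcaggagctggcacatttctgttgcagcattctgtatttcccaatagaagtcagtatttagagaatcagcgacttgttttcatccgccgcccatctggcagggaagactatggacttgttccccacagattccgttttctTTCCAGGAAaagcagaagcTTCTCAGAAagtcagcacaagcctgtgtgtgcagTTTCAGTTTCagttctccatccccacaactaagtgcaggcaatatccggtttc
Gbp3 (chr3:142559794-142560043, plus strand): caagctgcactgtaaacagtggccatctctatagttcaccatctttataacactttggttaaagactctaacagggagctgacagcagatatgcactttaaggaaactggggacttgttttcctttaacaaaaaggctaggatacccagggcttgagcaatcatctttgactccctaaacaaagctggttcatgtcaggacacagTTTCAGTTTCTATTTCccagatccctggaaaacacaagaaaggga
Gbp2 (chr3:142620413-142620662, plus strand): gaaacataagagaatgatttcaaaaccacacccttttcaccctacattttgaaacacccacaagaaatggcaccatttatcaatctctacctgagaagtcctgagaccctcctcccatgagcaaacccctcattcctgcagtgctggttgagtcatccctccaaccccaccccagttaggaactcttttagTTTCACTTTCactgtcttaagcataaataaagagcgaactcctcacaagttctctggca
Ifit1 (chr19:34640639-34640888, plus strand): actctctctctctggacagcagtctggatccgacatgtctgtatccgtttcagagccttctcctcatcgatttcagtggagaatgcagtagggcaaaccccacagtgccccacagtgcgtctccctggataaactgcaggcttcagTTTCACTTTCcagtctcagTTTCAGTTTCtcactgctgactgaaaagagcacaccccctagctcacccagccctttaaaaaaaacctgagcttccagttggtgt

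The ISRE core was present in all 9 GTPase genes with a sequence, in 8 of 19 type I genes (42.1%) and in 3.46% of all 27025 genes with a sequence. A GAS match was present in 5 of the 9 GTPase genes (55.6%), in 4 of the 19 type I genes (21.1%) and in 8.13% of all genes. In Gbp2b the ISRE core began 137 bases before the start, in Gbp7 at 53 and in Gbp2 at 59, and Gbp3 held a pair of overlapping cores at 45 and 39. The core was thus found both in GBP genes that fell and in those that did not pass. In 3 IRG genes the motifs had one arrangement, with GAS beginning 11 bases before the ISRE core and 2 bases between them. Bst2 had another, with a pair of overlapping cores. Its GAS match overlapped the first core and had 3 bases between it and the second. These short stretches are printed to show both arrangements, with the same use of capitals.
Irgm2 (chr11:58214896-58214928, plus strand): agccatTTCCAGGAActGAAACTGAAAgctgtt
Igtp (chr11:58199505-58199537, plus strand): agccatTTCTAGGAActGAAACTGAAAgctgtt
Tgtp1 (chr11:48992308-48992340, minus strand): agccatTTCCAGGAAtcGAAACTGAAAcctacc
Bst2 (chr8:71537581-71537614, minus strand): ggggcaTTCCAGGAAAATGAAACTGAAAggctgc
Of these, Irgm2 and Igtp did not pass the test and Bst2 fell. A match of letters is a description and not a binding site, and no match says only that those letters are not in this window.

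Of the 7 measured GBPs among the 36 genes, 5 fell with CDAA and the other two did not pass. Of the 11 GTPases together, 5 fell (45.5%) and 0 rose by limma at an adjusted p under 0.05, beside 9.13% of all genes that fell and 7.49% that rose. The median change, CDAA minus Std, was -0.42 for the 11 GTPases and -0.02 for all genes. For the same 5 genes every CDAA array lay below every Std array, which held for 7.73% of all genes.

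**Figure D1:**
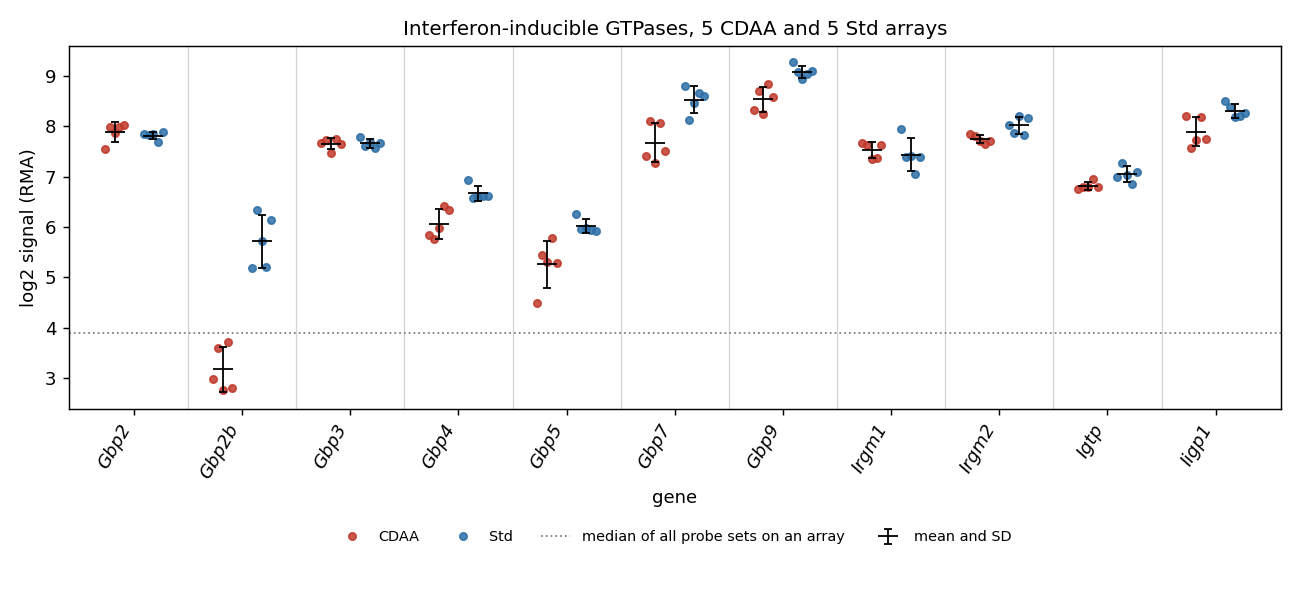
Log2 signal (RMA) of the 11 measured GTPases on the 5 CDAA arrays (left of each pair) and the 5 Std arrays (right), with mean and SD bars and a dotted line at the array median of 3.89. Gbp2b lies below the line on all CDAA arrays and above it on all Std arrays, and Gbp4, Gbp5, Gbp7 and Gbp9 are also lower on every CDAA array. The diets overlap for Gbp2, Gbp3, Irgm1, Irgm2, Igtp and Iigp1.

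Gbp2b (Entrez gene 14468), a large GTPase long called Gbp1 in mice, had log2 signals of 2.98, 3.60, 2.77, 3.72 and 2.81 in CDAA 1 to CDAA 5, against 5.19, 6.34, 5.72, 5.20 and 6.14 in Std 1 to Std 5. All CDAA values were below the array median and below the 90th percentile of the genes not expected in liver, and all Std values were above both, so the difference in transcript can be larger than the difference in signal. The change was -2.54 ± 0.26 (SE, limma adjusted p = 9.73e-05), a signal 5.82-fold lower with CDAA and the fifth largest fall of all genes. It passed under all 19 other settings, with changes between -2.68 and -2.06.

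The other 4 GBPs that fell changed less. Gbp7 had 7.40, 8.10, 7.28, 8.07 and 7.51 on CDAA arrays and 8.81, 8.12, 8.45, 8.66 and 8.60 on Std arrays. The highest CDAA array, CDAA 2, and the lowest Std array, Std 2, nearly met, and the change was -0.85 ± 0.18 (SE, limma adjusted p = 0.00794). Gbp5, a GBP linked to inflammasome activation, had 4.49, 5.44, 5.30, 5.78 and 5.28 with CDAA against 6.27, 5.96, 5.99, 5.93 and 5.92 with Std. CDAA 1 was its lowest array and Std 1 its highest, and the change was -0.76 ± 0.19 (SE, limma adjusted p = 0.0185), which did not pass without Std 1.

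Gbp4 had 5.83, 5.75, 5.97, 6.42 and 6.33 with CDAA and 6.93, 6.57, 6.60, 6.62 and 6.61 with Std, a change of -0.61 ± 0.14 (SE, limma adjusted p = 0.0114). The Std arrays other than Std 1 lay close together, and CDAA 4 came nearest to them. Gbp9 had 8.32, 8.70, 8.25, 8.83 and 8.58 with CDAA and 9.27, 9.07, 8.93, 9.04 and 9.10 with Std, a change of -0.55 ± 0.12 (SE, limma adjusted p = 0.00987). CDAA 4 and CDAA 2 were nearest to the Std arrays, as they were for Gbp7.

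Gbp2 and Gbp3, GBPs that also act on vacuoles, did not pass. Gbp2 had 7.54, 7.98, 7.86, 7.98 and 8.03 with CDAA and 7.84, 7.82, 7.84, 7.68 and 7.88 with Std, a difference of 0.06 with a 95% interval of -0.17 to 0.30. Gbp3 had 7.67, 7.72, 7.48, 7.75 and 7.64 with CDAA and 7.78, 7.60, 7.69, 7.56 and 7.66 with Std, a difference of -0.01 with an interval of -0.20 to 0.18. The arrays of the diets overlapped for both genes, and neither interval reaches the estimate for any of the 5 GBPs that fell. Whether the GBPs differed from each other in their response was not tested.

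The GBP genes lie in 2 clusters, and genes that fell were found in both. In chromosome 3 order the genes are Gbp5, Gbp7, Gbp3, Gbp2b and Gbp2, so that Gbp2b, with its change of -2.54, stands between Gbp3 at -0.01 and Gbp2 at 0.06. In chromosome 5 order they are Gbp8, Gbp9, Gbp4, Gbp10 and Gbp6. Gbp9 and Gbp4, which fell, are neighbours there, while Gbp8 and Gbp10, which are not among the 36 genes, differed by 0.07 and -0.22 and did not pass. Gbp11, on the same chromosome and annotated as a transcribed pseudogene, was left out of this order and differed by -0.11, so that 5 of 10 measured GBP genes fell. GBP genes are close in sequence, and probe sequences were not used here, so signal shared between near copies could not be checked.

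**Figure D2:**
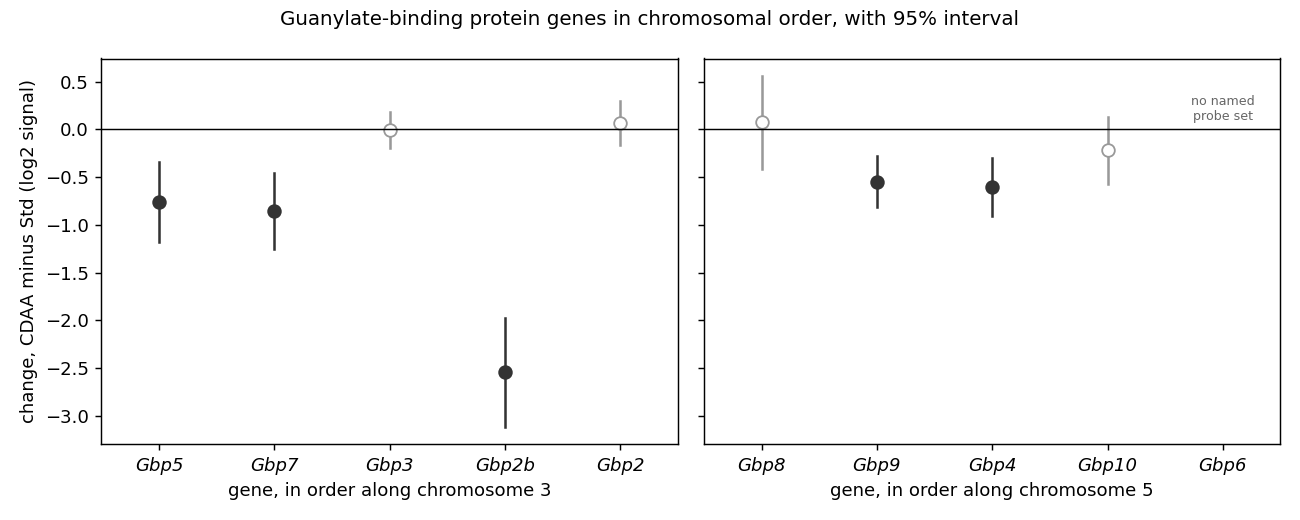
Change in log2 signal, CDAA minus Std, with 95% interval, for GBP genes, without the pseudogene Gbp11, in their order along chromosome 3 (left) and chromosome 5 (right); filled points passed at an adjusted p under 0.05 and open points did not. Changes of -2.54 and near 0 stand side by side on chromosome 3, and the 2 filled points of chromosome 5 are neighbours.

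None of the 4 measured IRGs among the 36 genes passed by limma at an adjusted p under 0.05. Of them, 3 had an unadjusted p under 0.05, as did 6994 of all 24704 genes. Irgm1, Irgm2 and Igtp belong to the regulators that keep the family inactive on the cell's own membranes, and Iigp1 is an effector that loads onto vacuoles. Iigp1 had 8.21, 7.58, 7.73, 8.18 and 7.75 with CDAA against 8.49, 8.39, 8.18, 8.20 and 8.27 with Std, a difference of -0.42 ± 0.14 (SE, limma adjusted p = 0.0561). The groups met at CDAA 1 and CDAA 4, and 5 of 19 other settings gave the gene a call, including those that left out CDAA 1 or CDAA 4.

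Irgm2 had 7.64 to 7.84 with CDAA and 7.82 to 8.20 with Std, a difference of -0.28 ± 0.10 (SE, limma adjusted p = 0.0811). For Igtp the ranges were 6.75 to 6.95 with CDAA and 6.86 to 7.28 with Std, a difference of -0.24 ± 0.10 (SE, limma adjusted p = 0.120). Irgm1 had the other sign, with 7.35 to 7.68 on CDAA arrays and 7.06 to 7.95 on Std arrays, a difference of 0.09 with an interval of -0.24 to 0.41. The estimates of Iigp1, Irgm2 and Igtp were below 0 under all 19 other settings.

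Of 11 other measured GTPases of these families and of atlastins, 2 fell (18.2%, beside 9.13% of all genes) and 0 rose (beside 7.49%). Gm4951, an IRG next to Iigp1 among these genes on chromosome 18, had 7.62, 7.02, 6.63, 7.41 and 7.23 with CDAA and 9.33, 7.51, 8.50, 8.22 and 8.28 with Std. CDAA 1 overlapped with Std 2, and the change was -1.19 ± 0.28 (SE, limma adjusted p = 0.0130). Atl1, an atlastin that shapes the endoplasmic reticulum, had a change of -1.02 ± 0.19 (SE, limma adjusted p = 0.00345). Ifi47 and Gm12250, both IRGs on chromosome 11, differed by -0.20 and -0.22 and did not pass.

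Type I genes showed little shared direction. Of 22 measured, 3 fell (13.6%, beside 9.13% of all genes) and 1 rose (4.5%, beside 7.49%), and the median change was -0.08. A share that near the background is not a result about these genes as a set. The 3 genes that fell also had every CDAA array below every Std array, and the gene that rose had every CDAA array above, which held for 7.73% and 6.16% of all genes.

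**Figure D3:**
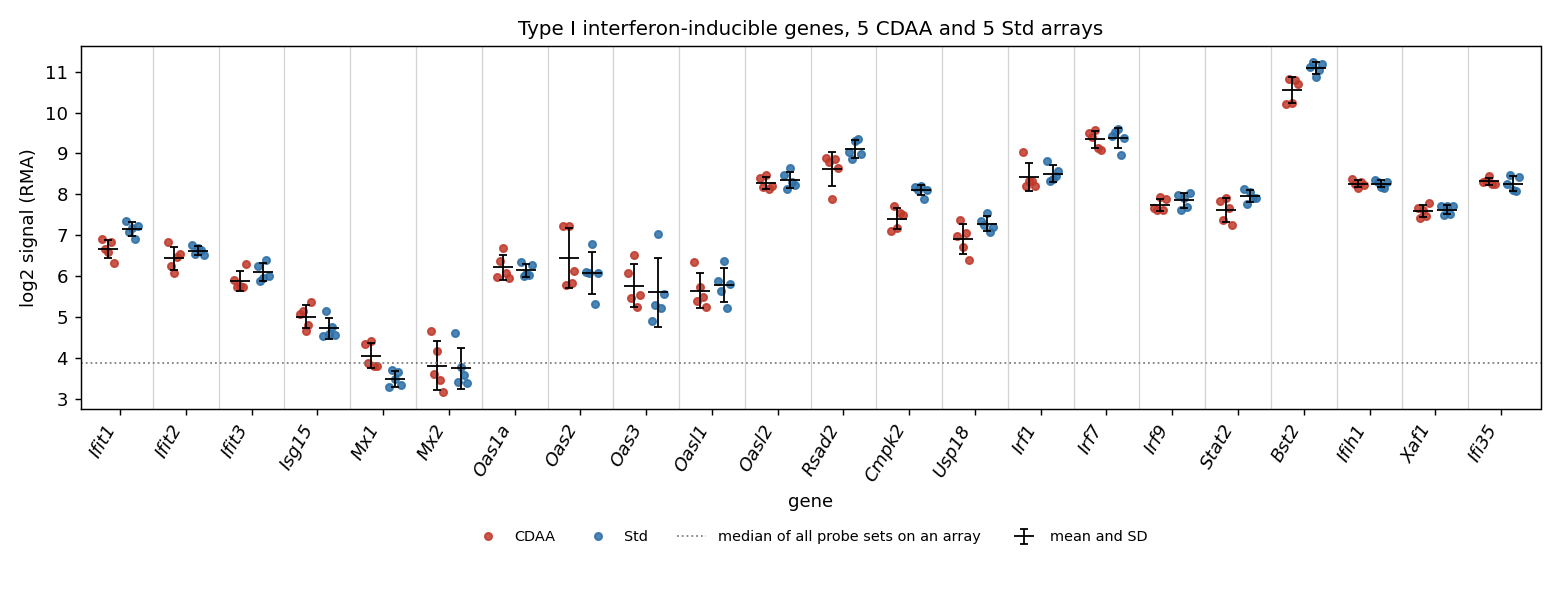
Log2 signal (RMA) of the 22 measured type I genes on the 5 CDAA arrays (left of each pair) and the 5 Std arrays (right), with mean and SD bars and a dotted line at the array median of 3.89. The diets overlap for all genes but Ifit1, Cmpk2 and Bst2, which are lower with CDAA, and Mx1, which is higher and lies near the line.

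Cmpk2 (Entrez gene 22169), a mitochondrial nucleotide kinase, had the largest change of the 22. Its log2 signal was 7.10, 7.71, 7.19, 7.54 and 7.50 in CDAA 1 to CDAA 5, against 8.18, 8.12, 8.20, 7.90 and 8.10 in Std 1 to Std 5. The lowest values were those of CDAA 1 and CDAA 3, and the change was -0.69 ± 0.13 (SE, limma adjusted p = 0.00305). Rsad2, which encodes the antiviral enzyme viperin, is its neighbour on chromosome 12. Rsad2 had 8.90, 8.78, 7.90, 8.86 and 8.65 with CDAA against 8.86 to 9.34 with Std, a difference of -0.49 ± 0.18 (SE, limma adjusted p = 0.0924). CDAA 3 stood well below the other arrays, and CDAA 1 lay above Std 2.

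Bst2, or tetherin, holds budding virus at the plasma membrane. It had 10.20, 10.82, 10.22, 10.79 and 10.70 with CDAA and 11.10, 11.22, 10.86, 11.03 and 11.18 with Std. The lowest were again CDAA 1 and CDAA 3, the arrays with the lowest pan-endothelial means, and CDAA 2 almost reached Std 3. The change was -0.53 ± 0.14 (SE, limma adjusted p = 0.0244), and without CDAA 1 and CDAA 3 it was -0.31 and did not pass (limma adjusted p = 0.103). Bst2 also lost its call without CDAA 1, CDAA 3, Std 1, Std 2 or Std 5 alone.

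Of the 3 IFIT genes among the 36, whose products bind viral RNA, Ifit1 passed and the other two did not. Ifit1 had 6.91, 6.67, 6.59, 6.83 and 6.34 with CDAA against 7.35, 7.08, 7.18, 6.92 and 7.24 with Std, a change of -0.49 ± 0.12 (SE, limma adjusted p = 0.0181). The CDAA 1 value lay just under that of Std 4, and the call was lost without Std 1. Ifit2 had 6.09 to 6.84 with CDAA and 6.51 to 6.76 with Std, a difference of -0.19. Ifit3 had 5.73 to 6.30 with CDAA and 5.88 to 6.40 with Std, a difference of -0.21. Whether Ifit1 differed from these in its response was not tested.

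Mx1 was the single member that rose. Mx proteins are dynamin-like GTPases that block virus, and most inbred mouse strains, C57BL/6 included, carry a defective Mx1. Mx1 had 4.36, 3.90, 4.44, 3.82 and 3.82 with CDAA against 3.30, 3.72, 3.49, 3.66 and 3.34 with Std, a change of 0.57 ± 0.15 (SE, limma adjusted p = 0.0212). All Std values and those of CDAA 4 and CDAA 5 were below the array median, so the signal was near background, and the highest arrays were CDAA 1 and CDAA 3. The call was lost without CDAA 1, without Std 1 or without Std 5. Mx2 had 4.66, 3.61, 4.19, 3.47 and 3.18 with CDAA and 4.61, 3.43, 3.78, 3.59 and 3.39 with Std, a difference of 0.06 with an interval of -0.57 to 0.70.

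Oligoadenylate synthetases activate the RNA-cutting enzyme RNase L. Of the synthetase and synthetase-like genes among the 36, 5 were measured (Oas1a, Oas2, Oas3, Oasl1 and Oasl2). None of the 5 passed by limma, nor did any have an unadjusted p under 0.05, beside 6994 of all 24704 genes that did. Oas3 had 6.08, 5.47, 6.53, 5.25 and 5.54 with CDAA and 4.90, 5.30, 7.04, 5.24 and 5.56 with Std, a difference of 0.17 with an interval of -0.63 to 0.96. Its highest array was Std 3, in which the mean of 10 neutrophil markers was 8.72, against 5.06 to 5.83 on CDAA arrays and 3.90 to 4.23 on the other Std arrays, and the part of these cells in Oas3 was not tested. Oas2 had 7.23, 5.80, 7.23, 5.84 and 6.14 with CDAA and 6.10, 6.09, 6.80, 5.33 and 6.08 with Std, and Std 3 was again the highest of its diet. Oas1a, Oasl1 and Oasl2 differed by 0.07, -0.13 and -0.07. Of relatives that are not among the 36 genes, Oas1b fell and Oas1c, Oas1d, Oas1e, Oas1f, Oas1g and Oas1h did not pass. Oas1b had 4.17, 4.08, 4.73, 4.69 and 4.10 with CDAA and 5.03, 4.76, 5.02, 4.90 and 4.91 with Std. Its change was -0.57 ± 0.15 (SE, limma adjusted p = 0.0178), with no overlap between diets. The others, in the order named, differed by -0.23, -0.06, 0.10, 0.12, -0.08 and -0.05.

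None of the 4 transcription factors among the members passed by limma at an adjusted p under 0.05. Stat2 alone of the 4 had an unadjusted p under 0.05, as did 6994 of all 24704 genes. Stat2, which joins Irf9 in the complex that binds the ISRE, had 7.85, 7.37, 7.92, 7.66 and 7.26 with CDAA and 8.13, 7.77, 8.06, 7.92 and 7.91 with Std, a difference of -0.35 ± 0.14 (SE, limma adjusted p = 0.117). The groups overlapped through CDAA 1 and CDAA 3. Without those arrays Stat2 was at -0.53 and passed (limma adjusted p = 0.0233). Irf9 differed by -0.11, Irf7, the amplifier of type I interferon production, by -0.04, and Irf1, which drives many gamma-inducible genes, by -0.09.

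The remaining members covered feedback, sensing and cell death. None of them passed by limma, and Usp18 alone had an unadjusted p under 0.05, beside 6994 of all 24704 genes that did. Usp18, the protease that removes ISG15 from proteins, had 6.40 to 7.38 with CDAA and 7.08 to 7.55 with Std, a difference of -0.37 ± 0.17 (SE, limma adjusted p = 0.164). Isg15, a ubiquitin-like protein, had 4.67 to 5.37 with CDAA and 4.56 to 5.15 with Std, a difference of 0.29 ± 0.15 (SE, limma adjusted p = 0.253). Ifih1, the double-stranded RNA sensor MDA5, differed by 0.01 with an interval of -0.18 to 0.19. Xaf1, a promoter of apoptosis, differed by -0.04 and Ifi35 by 0.05.

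**Figure D4:**
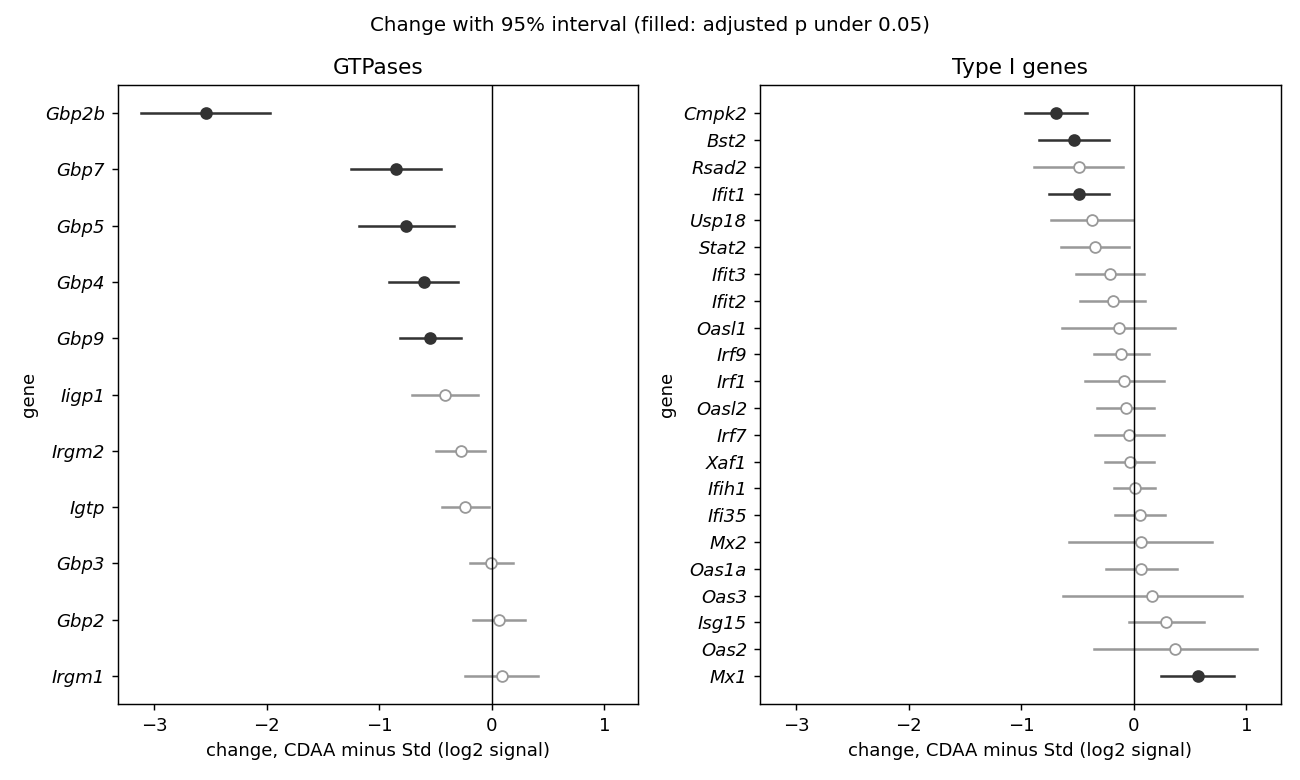
Change in log2 signal, CDAA minus Std, with 95% interval, for 11 GTPases (left) and 22 type I genes (right), sorted by change; filled points passed at an adjusted p under 0.05 and open points did not. The 5 filled GTPases lie between -2.54 and -0.55, and the filled type I genes are Cmpk2, Bst2 and Ifit1 below 0 and Mx1 above it.

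The signal upstream of these genes was looked for in the interferons and their receptors. Of 14 measured, 0 fell and 0 rose by limma, beside 9.13% and 7.49% of all genes. Among the 14, 3 had an unadjusted p under 0.05 (Ifngr1, Ifngr2 and Ifnl3), as did 6994 of all 24704 genes. Ifng, the ligand of the gamma receptor, had 3.45, 3.18, 3.47, 3.08 and 3.17 with CDAA and 3.12, 2.93, 2.72, 2.88 and 3.42 with Std, all below the array median, so its level could not be told from background on either diet. Ifngr1 had 9.52, 9.12, 9.55, 9.21 and 9.17 with CDAA and 8.80 to 9.11 with Std. Every CDAA array was higher, but the difference of 0.36 ± 0.11 lay just outside the threshold (SE, limma adjusted p = 0.0502), and it passed under 6 of 19 other settings. Ifngr2 too was higher on every CDAA array, at 9.42 to 9.68 against 9.17 to 9.40 on Std arrays, with a difference of 0.24 ± 0.09 (SE, limma adjusted p = 0.0800). Ifnl3, an interferon gene, went the other way, with means of 4.01 with CDAA and 4.61 with Std. Its difference, the largest of the 14, was -0.60 ± 0.19 (SE, limma adjusted p = 0.0538), and the diets overlapped. Ifnar1 and Ifnar2 differed by 0.16 and -0.11.

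Downstream of the receptors, 3 of 14 kinases, factors and inhibitors fell (21.4%, beside 9.13% of all genes) and 1 rose (7.1%, beside 7.49%). Socs1, a feedback inhibitor of JAK kinases that interferon gamma itself induces, had 5.14, 4.50, 5.20, 4.83 and 4.70 with CDAA and 6.32, 5.56, 5.48, 5.86 and 5.85 with Std. The diets did not overlap, and the change was -0.94 ± 0.18 (SE, limma adjusted p = 0.00362). Jak1, the kinase shared by both receptors, had a change of -0.60 ± 0.15 (SE, limma adjusted p = 0.0151), and Pias1, which restrains STAT factors, of -0.35 ± 0.09 (SE, limma adjusted p = 0.0171). Irf8, a factor of macrophages and dendritic cells, had 8.64, 8.07, 8.84, 7.84 and 8.26 with CDAA and 7.32, 7.69, 7.52, 7.14 and 7.41 with Std, a change of 0.91 ± 0.18 (SE, limma adjusted p = 0.00509). Irf8 was highest in CDAA 1 and CDAA 3, the arrays with the highest means of recruited macrophage markers, which were 7.75 to 9.23 on CDAA arrays and 4.99 to 6.09 on Std arrays, and the part of these cells in its rise was not tested. Irf2 differed by -0.07.

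In the nucleic acid sensing list, 3 of 24 genes fell (Ifi203, Tlr3 and Mavs) and 4 rose. These shares were 12.5% and 16.7%, beside 9.13% and 7.49% of all genes. Leaving out 1 array at a time gave 1 to 3 that fell and 1 to 6 that rose, with 1 of each without CDAA 1, Std 1, Std 4 or Std 5. Ikbke, a kinase of interferon production, had a change of 1.26 ± 0.36 (SE, limma adjusted p = 0.0311), and Irf5, a factor that turns on interferon and cytokine genes, of 0.96 ± 0.28 (SE, limma adjusted p = 0.0337). Zbp1, a sensor of Z-form nucleic acid, had 7.30, 6.49, 7.48, 6.63 and 6.88 with CDAA against 5.93, 5.84, 6.55, 5.72 and 6.12 with Std, a change of 0.93 ± 0.21 (SE, limma adjusted p = 0.00929). Tlr8, an endosomal RNA receptor, was the fourth. All 4 were highest in CDAA 1 and CDAA 3. Ikbke lost its call without CDAA 1, CDAA 3, Std 1, Std 2, Std 4 or Std 5 alone. Irf5 lost it with array weights and without CDAA 1, CDAA 3, CDAA 5, Std 1, Std 3, Std 4 or Std 5 alone.

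Of 46 further type I genes, 8 fell (17.4%, beside 9.13% of all genes) and 2 rose (4.3%, beside 7.49%). Pml, the core of nuclear bodies, had 7.93, 8.29, 8.18, 8.34 and 8.17 with CDAA against 8.98, 8.65, 8.81, 8.82 and 8.70 with Std, a change of -0.61 ± 0.10 (SE, limma adjusted p = 0.00217), with no overlap between diets. Ifi27l2a had a change of 1.29 ± 0.33 (SE, limma adjusted p = 0.0174) and Slfn2, a schlafen of immune cells, of 1.13 ± 0.35 (SE, limma adjusted p = 0.0427). Both had their highest CDAA values in CDAA 1 and CDAA 3, at 7.96 and 8.60 for Ifi27l2a and at 8.98 and 9.17 for Slfn2, and neither passed without those arrays. Slfn2 also lost its call without CDAA 1, CDAA 3, CDAA 5, Std 1, Std 2, Std 4 or Std 5 alone.

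Of 11 gamma-inducible chemokines and enzymes, 2 fell (18.2%, beside 9.13% of all genes) and 2 rose (18.2%, beside 7.49%). Acod1, which makes itaconate in macrophages, had 8.44, 6.83, 8.11, 6.92 and 6.71 with CDAA against 4.40, 4.35, 7.35, 4.09 and 3.97 with Std, a change of 2.57 ± 0.60 (SE, limma adjusted p = 0.0114). Its CDAA values were highest in CDAA 1 and CDAA 3, and Std 3 stood far above the other Std arrays. Ccl5, a T cell chemokine, had 8.50 to 8.89 with CDAA, against 8.92 in Std 5 and 6.87 to 7.34 on the other Std arrays, a change of 1.15 ± 0.31 (SE, limma adjusted p = 0.0236). Neither passed without CDAA 1 and CDAA 3, and Ccl5 also lost its call without CDAA 1, Std 1, Std 2 or Std 4 alone. The genes that fell were Socs1, which this list shares with the kinases and inhibitors, and Batf2. Cxcl9 and Cxcl10, chemokines by which interferon gamma draws T cells, differed by 0.11 and 0.19.

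Markers of cells that make interferon were set beside these values. Of T and NK cell markers, 1 of 17 rose (Eomes; 5.9%, beside 7.49% of all genes) and 0 fell (beside 9.13%). Differences below 0 were found for 2 of them (11.8%, beside 53.7% of all genes) and above 0 for 15. Their list mean was 4.61 to 4.92 on CDAA arrays, 5.14 in Std 5 and 4.35 to 4.54 on the other Std arrays. Cd3e, which was below 0, had means of 4.72 with CDAA and 4.98 with Std, with 5.88 in Std 5 and 4.57 to 4.98 on the other Std arrays. Ncr1 had means of 4.58 with CDAA and 4.27 with Std. Of 8 plasmacytoid dendritic cell markers, 1 fell (12.5%, beside 9.13% of all genes), and it is Bst2 itself. Siglech, their defining receptor, had means of 3.22 with CDAA and 2.93 with Std, below the array median.

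The mean of the GTPases was set beside that of the endothelial markers. The mean of the 11 GTPases was 6.79, 7.01, 6.77, 7.15 and 6.91 in CDAA 1 to CDAA 5 and 7.33 to 7.60 on Std arrays. The pan-endothelial mean was 10.21, 10.74, 9.83, 10.91 and 10.57 in CDAA 1 to CDAA 5 and 11.12 to 11.29 on Std arrays. Both means were lowest in CDAA 3, then CDAA 1, CDAA 5, CDAA 2 and CDAA 4, and neither overlapped between diets. The Std arrays shared no such order. Std 1 was highest for both, but Std 4 had the lowest GTPase mean, 7.33, with a pan-endothelial mean of 11.28, close to the highest. Of the single GBPs that fell, only Gbp9 had its CDAA arrays in the same order as these means. Gbp2b was lowest in CDAA 3 and then CDAA 5, and Gbp7 was highest in CDAA 2. Gbp4 was lowest in CDAA 2 and Gbp5 in CDAA 1.

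In a fit that held the pan-endothelial mean constant, 1 of 11 GTPases fell, among 73 genes in all, and it was Gbp2b, at -2.06 (limma adjusted p = 0.0449). Gbp7, Gbp4, Gbp5 and Gbp9 had -0.22, -0.37, -0.30 and -0.12 in that fit and did not pass, and no type I gene passed. No gene of the pathway lists above passed in that fit either, Jak1, Socs1, Gm4951, Atl1 and Pml included. The pan-endothelial mean differed between the diets without overlap, so diet and endothelial share cannot be told apart. Without CDAA 1 and CDAA 3, Gbp2b at -2.34 and Gbp5 at -0.52 fell, while Gbp7 at -0.63, Gbp4 at -0.50 and Gbp9 at -0.38 did not pass. With the Kupffer cell mean held constant, 5 GTPases and 4 type I genes fell, among 2791 genes in all. The Kupffer cell mean joins markers that changed in opposite directions, so it is no plain measure of the share of these cells.

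**Figure D5:**
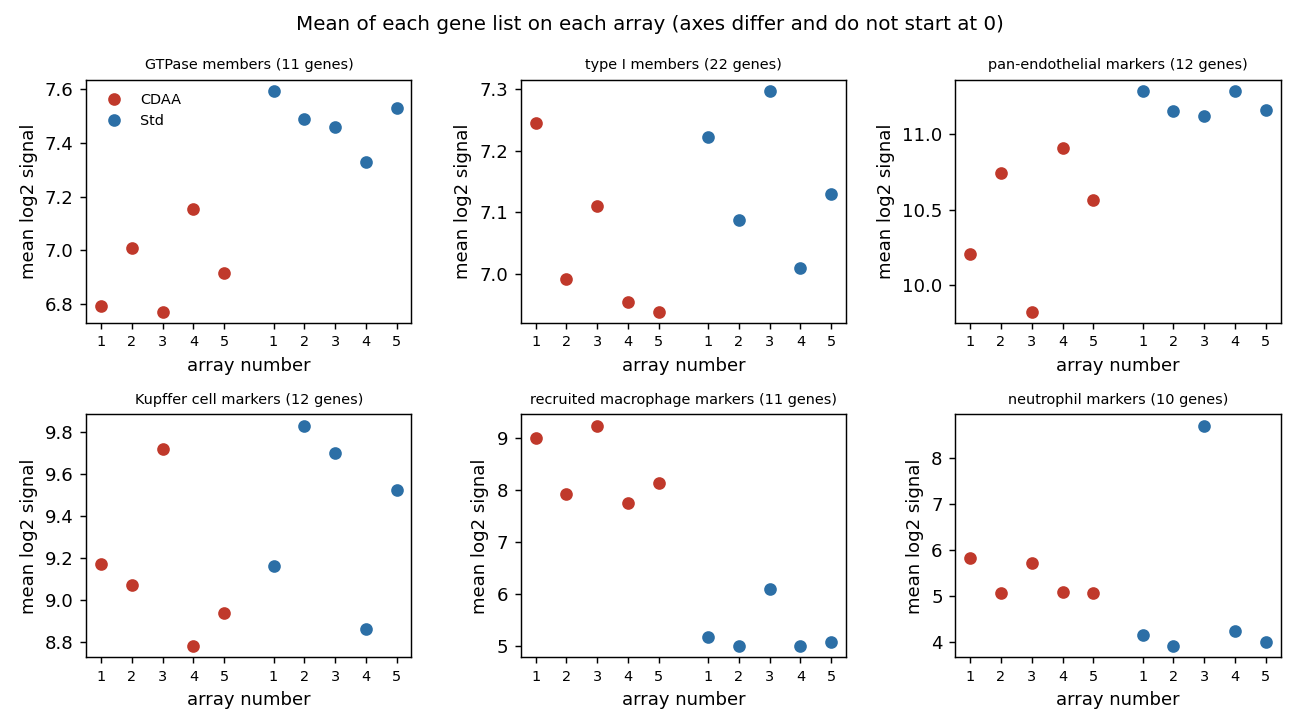
Mean log2 signal of 6 gene lists on each array, CDAA arrays at the left and Std arrays at the right of each panel; the vertical axes differ and do not start at 0. The GTPase and pan-endothelial means are lower on every CDAA array, the type I mean overlaps between diets, and the neutrophil mean of Std 3 stands at 8.72.

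The mean of the type I genes did not separate the diets. It was 7.25, 6.99, 7.11, 6.96 and 6.94 in CDAA 1 to CDAA 5, against 7.22, 7.09, 7.30, 7.01 and 7.13 in Std 1 to Std 5. Of the 22 type I genes, 8 had their highest CDAA value in CDAA 1 and 8 in CDAA 3, whereas 6 of 11 GTPases had it in CDAA 4 and 0 in CDAA 3. Among Std arrays, 7 of 11 GTPases were highest in Std 1.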

How the data were processed

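Affymetrix arrays of 5 CDAA and 5 Std pools were compared. The deposited values are log2 signals per probe set that the authors produced with RMA, per the submitters' processing notes; version, array design and genome build are not given in the sources used here. RMA gives all arrays the same distribution, so a change is relative to the other genes of the array. Of 25428 probe sets, 24705 had 1 gene symbol in the platform annotation, 0 had several and 723 had none. The brighter probe set stood for the 1 symbol with more than 1, which left 24704 genes.

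Diets were compared with limma 3.58.1 in R 4.3.3 (lmFit and eBayes, two-sided). P-values were adjusted by the Benjamini-Hochberg method across the 24704 genes, and "rose" or "fell" stands for an adjusted p under 0.05. The code was tested on simulated data. The pools are the replicates. Members, lists, tests and alternatives were chosen with earlier results of these data known. All 36 members were to be named, together with 8 fixed pathway genes, of which 1 is not reported here, the defining cell markers and, per pathway list, up to 3 of the genes that passed, taken by size of change. Tlr8, Ifi203, Tlr3, Mavs, Pias1, Batf2, Gbp8, Gbp10, Gbp11, Oas1b, Ifi47, Gm12250, Cxcl9, Cxcl10 and Eomes were added after their values were seen. So were Ifnl3, Oas1c, Oas1d, Oas1e, Oas1f, Oas1g and Oas1h. Counts within a list carry no test of the list. Promoters are RefSeq sequence of build GRCm38.p6. Other settings, described in the closing section, varied the normalization, the filter on dim genes, the variance model, the weights, the arrays kept, the replicate block and marker covariates. The number of arrays limits the precision.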

Additional observations from a re-analysis of the deposited data

Results flagged for a closer look

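An array was singled out where its distance to the nearest other array of its diet was over 0.71 of that diet's range, Dixon's critical value for 5 values. Of 66 sets of 5 arrays, 5 held such an array, and chance gives about 1 in 20. Gbp4 was 6.93 in Std 1, against 6.57 to 6.62 on the other Std arrays. Gbp5 was 6.27 in Std 1, against 5.92 to 5.99 on the other Std arrays, and without Std 1 the change of Gbp5 did not pass. Igtp was 6.95 in CDAA 4, against 6.75 to 6.80 on the other CDAA arrays. Rsad2 was 7.90 in CDAA 3, against 8.65 to 8.90 on the other CDAA arrays. Irf1 was 9.03 in CDAA 1, against 8.21 to 8.33 on the other CDAA arrays.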

How the results depend on the processing

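The deposited values allow no other background correction, probe overlap between near copies was not checked, and 5 pools per diet limit the precision. Over 19 other settings the 33 members gave 625 values, of which 557 kept their sign and their side of the threshold, 23 lost the call, 8 gained it and 37 changed sign. The sign changes fell on 13 members, none of them among the 9 that passed, and none of the reversed values passed. Of 170 values of the 9 members that passed, 147 kept the call. With the replicate number as a block, 5 GTPases and 3 type I genes fell and 1 type I gene rose, among 2285 genes that fell and 1893 that rose, and no member's call changed. The labels name no shared litter or day, so the numbers were not taken as pairs. Same-numbered arrays of the diets correlated in their deviations by 0.02 to 0.25, and arrays 2, 3 and 4 but not 1 and 5 correlated best with their own number. Of the 33 members, 7, 1, 3, 0 and 1 were highest in both diets in arrays 1 to 5. With the block, the SE went from 0.29 to 0.12 for Mx2 and from 0.33 to 0.19 for Oas2, but from 0.088 to 0.101 for Gbp3. Leaving out genes below the median removed Mx1 and Mx2 and left 0 type I genes that rose. Without CDAA 1 and CDAA 3, 2 GTPases fell and 0 type I genes rose, among 1307 genes that fell. With the pan-endothelial mean as covariate, 1 GTPase and 0 type I genes fell and 0 type I genes rose, among 73 genes that fell and 168 that rose. Leaving out 1 array at a time gave 4 to 6 GTPases that fell (4 without Std 1), 1 to 3 type I genes that fell (1 without Std 1), 0 to 1 that rose (0 without CDAA 1, Std 1 or Std 5), 1554 to 2583 genes that fell and 1402 to 1989 that rose. Leaving out 1 array also turned the sign of small differences, with ranges of -0.0307 to 0.0367 for Gbp3, -0.00685 to 0.217 for Irgm1, -0.150 to 0.273 for Mx2, -0.0522 to 0.129 for Oas1a, -0.0244 to 0.524 for Oas3, -0.308 to 0.0157 for Oasl1, -0.128 to 0.000273 for Oasl2, -0.143 to 0.0242 for Irf7, -0.0202 to 0.0334 for Ifih1 and -0.0870 to 0.00310 for Xaf1. Other reversed values were 0.0269 for Gbp3 and -0.0946 for Mx2 with array weights. Without CDAA 1 and CDAA 3 they were 0.0447 for Gbp3, -0.342 for Mx2, -0.0127 for Oas1a, -0.152 for Oas2 and -0.189 for Oas3. With the pan-endothelial covariate they were 0.155 for Gbp3, -0.553 for Mx2, -0.193 for Oas1a, -0.875 for Oas2, -0.882 for Oas3, 0.0432 for Rsad2, -0.0805 for Ifi35, -0.226 for Ikbke, -0.104 for Irf5, -0.0550 for Slfn2 and -0.0134 for Ifng, and with the Kupffer cell covariate 0.0209 for Oasl1 and 0.107 for Irf7. Beyond the arrays or genes left out, the cause was not tested.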
